A study of Mus musculus with 5 samples.

Results

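Of the 14053 transcribed loci in the expression table, 1678 carried a dash in place of a gene name. They are described here for what they are, where they lie and how they differ between tissues. The choice used only the name field and no expression value. Of these unnamed loci, 1602 lay on the autosomes, among 13530 autosomal loci in all, 75 lay on chromosome X and 1 on chromosome Y. All values below are for autosomes unless stated, and the 11928 named autosomal loci serve as the reference.

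The values come from poly(A) RNA of C57BL/6J mouse embryos, with 1 library for each of 5 tissues. Foregut and medial foregut were taken at embryonic day E8.5, while liver, ventral pancreas and dorsal pancreas were taken at E10.5. The sources used here do not say how many embryos were pooled, and no transgene, mutation or treatment is labelled. Levels are in FPKM (fragments per kilobase for every 1e+06 that were mapped), and where 5 values are listed they follow the order foregut, medial foregut, liver, ventral pancreas, dorsal pancreas. With 1 library per tissue there is no replicate error and no test, so every difference describes these libraries. The number of reads behind each value is unknown. In bulk tissue, fewer cells of a type and less RNA per cell cannot be told apart.

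Transcript assemblers join overlapping aligned fragments into loci and then borrow the names of annotated genes, so a locus stays unnamed when it meets no gene of the annotation used. Such loci can be long noncoding RNAs, fragments of unspliced transcripts, RNAs that start from a gene's promoter and run the opposite way, or processed pseudogenes. A processed pseudogene is a reverse-transcribed copy of an mRNA that was pasted back into the genome. It has no introns and can be nearly identical to its parent gene, so that reads of 1 may be placed on the other. Where libraries do not mark strand, and none is described here, an assembler takes the strand from the bases at splice junctions, and an unspliced locus has none. Many mammalian promoters rich in CpG start transcription in both directions, and the RNA made away from the gene is often short-lived and weak.

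Part of the results on position turns on named genes with an unnamed locus near their start. Pdpn and Tbx20 had such a locus on the opposite strand at 41 and 504 bp, and Ptf1a at 9818 bp. Onecut1 had such a locus on its own strand, 6742 bp before its start. The promoters of these 4 genes are printed. They were picked after the values were seen, as neighbours of loci described below that have 1 listed start in RefSeq. Each window runs from 250 bases before to 50 bases after that start, is from RefSeq on GRCm38.p6, and is written 5′ to 3′ on the gene's strand. The windows are chr9:74861671-74861970 (plus strand) for Onecut1, chr2:19445413-19445712 (plus) for Ptf1a, chr4:143299515-143299814 (minus) for Pdpn and chr9:24774254-24774553 (minus) for Tbx20. Capitals mark GC boxes, the letters GGGCGG on either strand.
Onecut1: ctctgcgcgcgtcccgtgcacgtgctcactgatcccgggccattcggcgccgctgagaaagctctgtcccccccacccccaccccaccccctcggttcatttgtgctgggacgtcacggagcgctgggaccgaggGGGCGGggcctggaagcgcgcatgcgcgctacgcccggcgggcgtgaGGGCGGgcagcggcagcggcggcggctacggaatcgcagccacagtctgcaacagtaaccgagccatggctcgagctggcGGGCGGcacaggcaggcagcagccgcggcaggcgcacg
Ptf1a: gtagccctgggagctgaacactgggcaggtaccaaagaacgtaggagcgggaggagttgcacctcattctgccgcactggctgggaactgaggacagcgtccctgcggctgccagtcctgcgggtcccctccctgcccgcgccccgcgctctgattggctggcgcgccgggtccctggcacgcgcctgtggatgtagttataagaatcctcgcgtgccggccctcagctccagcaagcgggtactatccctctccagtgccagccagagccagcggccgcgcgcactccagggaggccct
Pdpn: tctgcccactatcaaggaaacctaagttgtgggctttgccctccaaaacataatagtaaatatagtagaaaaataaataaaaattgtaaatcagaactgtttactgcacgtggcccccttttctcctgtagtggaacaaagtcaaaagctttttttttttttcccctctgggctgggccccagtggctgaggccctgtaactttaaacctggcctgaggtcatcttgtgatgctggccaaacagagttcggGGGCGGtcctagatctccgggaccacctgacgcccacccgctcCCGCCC
Tbx20: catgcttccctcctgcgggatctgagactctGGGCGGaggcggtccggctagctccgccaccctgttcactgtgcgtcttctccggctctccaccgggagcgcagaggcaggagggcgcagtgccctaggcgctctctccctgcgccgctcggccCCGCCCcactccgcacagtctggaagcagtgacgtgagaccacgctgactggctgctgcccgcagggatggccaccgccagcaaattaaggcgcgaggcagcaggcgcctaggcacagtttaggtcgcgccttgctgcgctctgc
The Onecut1 window held 38 CpG and 3 GC boxes, that of Tbx20 26 CpG and 2 boxes, and that of Ptf1a 23 CpG and no box. The Pdpn window held 7 CpG and 2 boxes. None of the 4 held TATAAA on either strand. Among all 32851 RefSeq windows of this length, 35.7% held a GC box and 13.6% held TATAAA. The unnamed loci themselves are given by position on mm9, the build of the table, without sequence.

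The unnamed loci were short and mostly without strand. Of 1602, 384 were on the plus strand, 216 on the minus strand and 1002 (62.5%) had no strand, against 178 (1.49%) of the named loci. Their median span was 3552 bp (quartiles 1518 and 14110 bp, range 134 to 1175331 bp), and that of the named loci was 32311 bp. Of the unnamed loci, 519 (32.4%) had a mean over the 5 libraries of at least 10 FPKM and 796 (49.7%) one under 1 FPKM. The same shares of the named loci were 50.3% and 9.62%. The unnamed loci thus fell into a weak and a strong group with 287 in between, and the groups differed in strand and span. Among 570 loci of up to 3000 bp that had no strand and an interval of their own, the median of the mean levels was 33.7 FPKM, 386 (67.7%) reached 10 FPKM and 161 reached 100 FPKM. Among 256 such loci over 3000 bp it was 0.538 FPKM, and 82.4% stayed under 1 FPKM. The 462 loci with strand and an interval of their own had a median of 0.985 FPKM, and 89 reached 10 FPKM. These bounds of span and level were set after the values were seen.

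**Figure D1:**
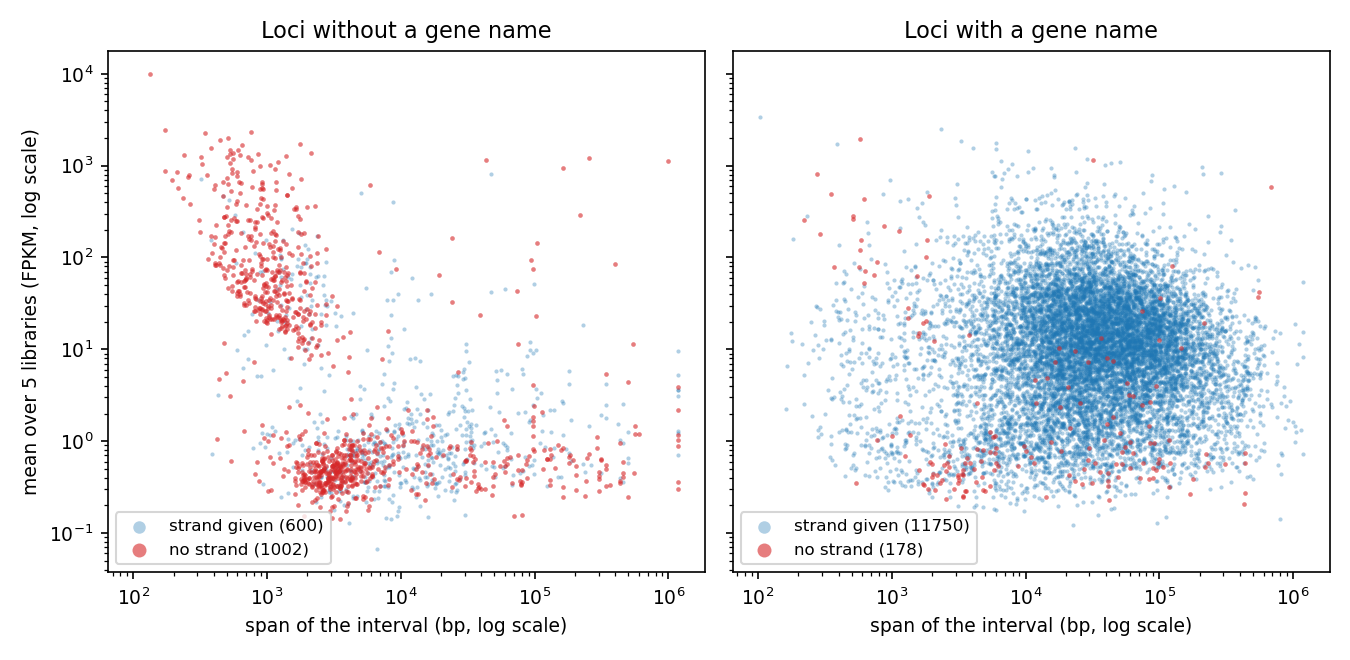
Mean level over the 5 libraries (FPKM, log axis) against the span of the interval (bp, log axis) for unnamed loci (left) and named loci (right), 1 point per autosomal locus, with loci without strand in red. Unnamed loci without strand fill 2 clouds, a strong one mostly under 3000 bp and a weak one mostly above 1000 bp, and few named loci lie in either.

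Where a strand was given, plus outnumbered minus. The plus share was 64.0% of the unnamed loci and 50.4% of the named loci. It was 64.0% at means under 1 FPKM, 63.2% from 1 to under 10 FPKM and 65.7% above, and plus was in excess on 18 of 19 autosomes, compared with 11 for named loci. The source of this split was not tested. The share of unnamed loci per chromosome ran from 7.58% to 21.4%, with 11.8% over all autosomes.

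The strong loci without strand lay where the current annotation lists pseudogenes. The table's own neighbours were used to place them: for each unnamed locus, the nearest named gene on either side was looked up in the RefSeq gene table, and the RefSeq genes between those flanks that no locus of the expression table is named for were taken as candidates. Both flanks were found for 1374 unnamed loci. Of 376 loci without strand, of up to 3000 bp and with a mean of at least 10 FPKM, 96.8% had at least 1 pseudogene among the candidates, and 282 of them had one between 0.8 and 1.25 times their own span. Of 150 loci of the same kind under 1 FPKM, 38.0% had a pseudogene and 8.67% one of like span, and of 453 loci with strand 61.4% and 19.0%. Strong loci lay in wider gaps, with a median of 7 candidates against 2. In gaps with 1 to 3 candidates only, a pseudogene of like span was listed for 66.7% of 105 strong loci, for 0 of 55 weak ones and for 7.14% of 168 loci with strand. Strong and weak loci also differed in span, which the match uses. Of 41 unnamed loci without strand of 301 to 500 bp, 38 reached a mean of 10 FPKM. From 1001 to 3000 bp, 189 of 360 did. The shares with a pseudogene of like span were not taken by class of span, so level and span cannot be told apart in them. A candidate between flanks is a listing and not an assignment.

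For 41 unnamed loci there was exactly 1 pseudogene of like span between the flanks, its symbol named a parent gene, and that parent was a single locus of the table. These came from 39 pseudogenes, since 2 of them served 2 loci each. Of the 41 loci, 33 had no strand and 40 had a mean of at least 10 FPKM. Ribosomal proteins were encoded by 12 of the 41 parents. Loci with a ribosomal parent had a median of 659 FPKM and the others 87.6 FPKM. The unnamed locus was above its parent in 30 of 41 cases and at least 5 times above it in 15. The median was 104 FPKM for the unnamed loci and 53.2 FPKM for the parents. Between Rpl31-ps8's flanks, XLOC_020881 stood at 1343, 1380, 1539, 1211 and 1199 FPKM, while Rpl31, a protein of the large ribosomal subunit, stood at 39.7, 47.2, 46.9, 43.6 and 33.8 FPKM. The Gng5-ps candidate XLOC_022343 stood at 157 to 210 FPKM over the 5 libraries, and its parent locus, which joins the G protein subunit gene Gng5 with Spata1, at 1.95 to 2.62 FPKM. Reads of a parent and its copy may be placed on either, and neither value is certain. Both examples were chosen after their values were seen.

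In some pairs the unnamed locus differed between tissues much as the parent did. Got2 encodes the mitochondrial aspartate aminotransferase. It stood at 84.3, 79.9, 293, 131 and 73.6 FPKM, and XLOC_044654, with Got2-ps1 as its candidate, at 73.3, 60.8, 256, 104 and 62.6 FPKM. Liver was highest and ventral pancreas next in both. Ldhb, a lactate dehydrogenase subunit, stood at 20.4, 11.4, 79.5, 40.1 and 26.1 FPKM, and the Ldhb-ps candidate XLOC_028208 at 43.4, 17.6, 124, 61.5 and 45.8 FPKM. Hadhb, a subunit of the mitochondrial enzyme that breaks down long fatty acids, stood at 44.4, 33.8, 114, 71.6 and 62.6 FPKM, and the Hadhb-ps candidate XLOC_029923 at 19.1, 22.1, 72.5, 37.4 and 43.4 FPKM. Both genes and both unnamed loci were highest in liver. The exception in level was Cnn2-ps: its candidate XLOC_028995 stayed at 0.573 to 1.60 FPKM over the 5 libraries, although Cnn2, an actin-binding calponin, reached 239 FPKM in medial foregut. Over the 41 pairs, Spearman's rho between the locus's and the parent's difference ran from 0.11 to 0.71 over the 10 pairs of libraries, with a median of 0.39. These are correlations across loci within the same libraries, and the pairs of libraries share members. The genes named in this paragraph were chosen after their values were seen.

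As a group, the strong unnamed loci varied little. At a mean of at least 10 FPKM, the range over the 5 libraries, highest minus lowest on the log2(FPKM + 1) scale, had a median of 0.54 for all 519 unnamed loci and 0.61 for named loci. The range reached 2 for 14 of these unnamed loci (2.70%) and for 558 named loci (9.31%). Like named loci varied as little. At that level, 386 unnamed loci of up to 3000 bp without strand, in an interval of their own, had a median range of 0.52. The 29 named loci of that kind had a median of 0.54. The small differences had a common direction. Of 417 strong loci without strand, 52.0% were highest in liver, against 30.5% of named loci at the same level and 42.9% of the 42 named loci that also lacked strand. Liver exceeded ventral pancreas by a median of 0.25 and dorsal pancreas by 0.30, and the same medians for named loci were -0.03 and -0.04. It exceeded foregut by a median of 0.13 and medial foregut by 0.10. With each library rescaled to the same total, the 4 medians were 0.17, 0.10, -0.01 and 0.11 in the same order, so liver minus foregut changed sign, and 36.9% were highest in liver against 22.5% of named loci. With median-ratio scaling the medians were 0.50, 0.52, 0.25 and 0.20, and 65.0% were highest in liver against 42.9% of named loci.

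The 8 unnamed loci with the highest means were all without strand, from 134 to 1771 bp long, and reached means from 1681 to 9827 FPKM. The 8 highest unnamed loci of each library were also taken library by library, so they are not always these 8. They held 4.397%, 6.04%, 4.59%, 7.53% and 4.42% of the library's summed FPKM, in the order of tissues above. This share was highest in ventral pancreas and medial foregut. Of the 8 loci with the highest means, 5 were flat across tissues. XLOC_057996, 765 bp at 9:96796029 to 96796794 and 2946 bp from Acpl2, stood at 2368, 2544, 2549.7, 2067 and 1959 FPKM. XLOC_034029 near 1700029J11Rik ranged from 1982 to 2617 FPKM, XLOC_046733 near Gng12 from 1597 to 2335, XLOC_031808 near Ppp6c from 1549 to 1927 and XLOC_005032 near Rspo3 from 1429 to 1869 FPKM. The other 3 were not flat. XLOC_017509, 134 bp on chromosome 14 (20110659 to 20110793) and 459357 bp from Nid2, stood at 5672, 12989.5, 7097, 16362 and 7012 FPKM. XLOC_046544, 174 bp on chromosome 6 (49186443 to 49186617) and 7251 bp from Tra2a, stood at 1586, 3236, 1789, 4188 and 1489 FPKM. XLOC_035243, 448 bp near Pxmp3, stood at 1188, 2398, 1339, 3417 and 1208 FPKM. In all 3, medial foregut and ventral pancreas were above the other libraries, which lay close together.

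The same pattern was seen in most very short unnamed loci. There were 11 unnamed loci of up to 300 bp, all without strand and all with means from 383 to 9827 FPKM. Their difference, medial foregut minus foregut, had a median of 0.89 on the log2 scale and ran from -0.13 to 1.29. Ventral minus dorsal pancreas had a median of 1.40 and ran from -0.24 to 2.04. In the other 4 of the 11 the steps were smaller or reversed, for instance XLOC_050985 at 707, 809, 856, 714 and 665 FPKM and XLOC_023046 at 580 to 793 FPKM. Among unnamed loci of 301 to 500 bp at 10 FPKM or more the same medians were 0.14 and 0.07, and from 1001 to 3000 bp they were -0.07 and -0.09. For the 15 named loci of up to 300 bp at that level they were -0.01 and 0.10. A rule asked for medial foregut minus foregut of at least 0.5 and ventral minus dorsal pancreas of at least 1. At 10 FPKM or more it held for 16 of 519 unnamed loci (3.08%), 7 of them among these 11. It held for 38 of 5995 named loci (0.634%), 1 of them among the 27 of up to 300 bp. Longer intervals met it too, such as those of XLOC_010518 (162288 bp, shared by 2 loci) and Il31ra (31640 bp). These bounds were set after the values were seen. The 2 libraries in question come from different stages, and the sources used here do not say what they share in handling. FPKM divides by length, so values of loci near the length of a sequenced fragment depend on how length was corrected for, and this was not tested.

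**Figure D2:**
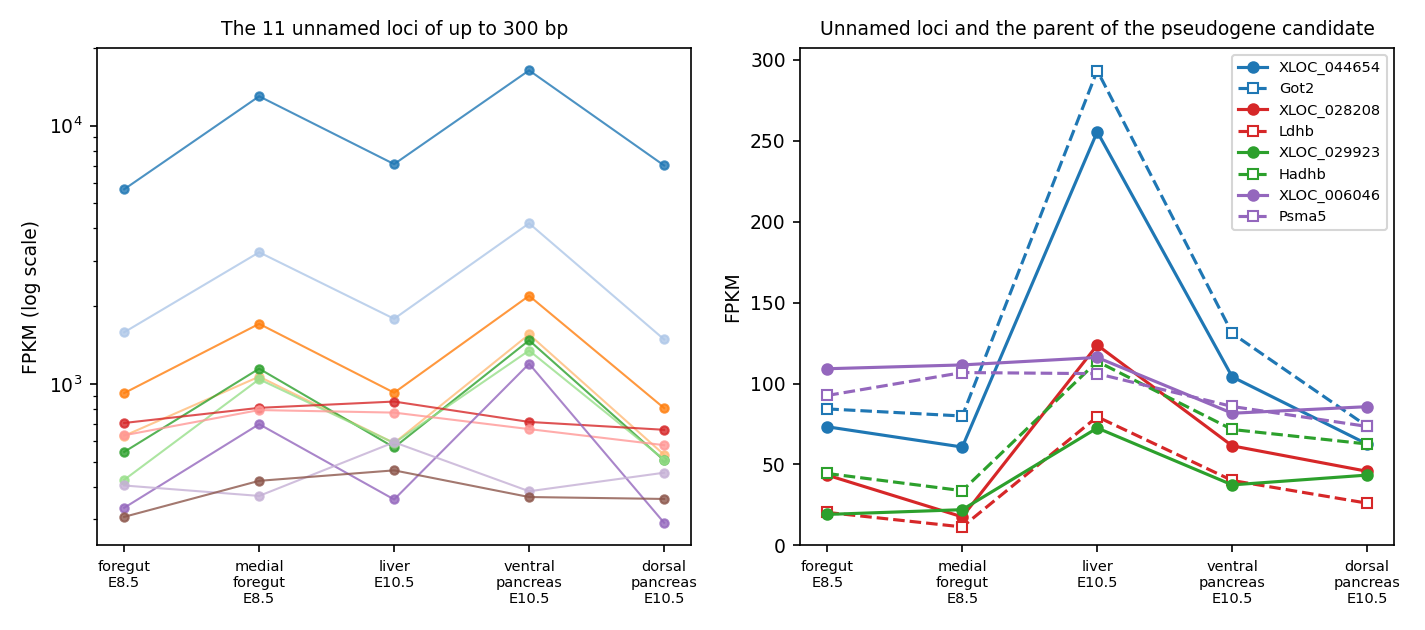
Left, FPKM (log axis) of the 11 unnamed loci of up to 300 bp in the 5 libraries, 1 line per locus. In 7 of them medial foregut exceeds foregut by at least 0.5 and ventral exceeds dorsal pancreas by at least 1 on the log2 scale, and in 4 the steps are smaller or, for XLOC_032668, reversed. Right, FPKM of 4 unnamed loci (filled circles, solid lines) and of the parent gene of the pseudogene listed between their flanks (open squares, dashed lines). For Got2, Ldhb and Hadhb both lines peak in liver, and for Psma5 both are nearly flat.

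The weak loci differed between libraries in another way. At 1 FPKM or more stood 750 unnamed loci in foregut and 757 in medial foregut, against 706 in liver. Ventral pancreas had 1022 and dorsal pancreas 866. These were 46.8%, 47.3%, 44.1%, 63.8% and 54.1% of the 1602, while named loci at 1 FPKM or more ranged from 83.0% in liver to 90.2% in ventral pancreas. The median over all unnamed loci was 0.845, 0.870, 0.663, 1.58 and 1.20 FPKM. All 5 libraries had 635 unnamed loci at 1 FPKM or more in common, and 478 loci reached 1 FPKM in none. A single library passed 1 FPKM for 217 loci, and this library was ventral pancreas for 151, dorsal pancreas for 25, medial foregut for 20, foregut for 12 and liver for 9. A further 100 loci passed in both pancreatic libraries and no other, 17 in both E8.5 libraries only and 21 in the 3 E10.5 libraries only. Of the 1602, 13.5% thus passed in a single library and 9.43% in ventral pancreas alone. The same counts were not made for named loci, so whether they are particular to unnamed loci was not tested. Of the 796 loci with a mean under 1 FPKM, 52.6% were highest in ventral pancreas and 5.40% in liver. Of 1148 named loci under 1 FPKM the shares were 33.4% and 13.8%, so weak named loci leaned the same way. Among loci without strand the share highest in ventral pancreas was 57.1% of 499 unnamed and 49.0% of 104 named loci. Rescaled to the same total, 50.6% of the weak unnamed loci were highest in ventral pancreas, and 48.2% with median ratios. Whether read depth moved with this is unknown, since the table gives no counts.

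Position relative to named genes was read within the table. An unnamed locus shared its interval with a named locus in 191 cases, lay 1 to 1000 bp away in 207, 1001 to 5000 bp away in 218, 5001 to 50000 bp away in 495 and farther off in 491. The strong loci were the remote ones: of the 519 at 10 FPKM or more, 55.1% were over 50000 bp from any named locus, against 14.7% of named loci at that level. Weak loci were close, and 169 of 796 lay within 1 to 1000 bp.

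Close to genes, unnamed loci with strand were mostly head to head with them, that is, on the opposite strand and pointing away from the gene's start. Of 68 pairs at 1 to 1000 bp in which both strands and a single arrangement were known, 54 (79.4%) were head to head, 3 tail to tail, 4 on the same strand before the gene's start and 7 after its end. Among named loci and their nearest named locus at that distance, 393 of 1151 (34.1%) were head to head. From 1001 to 5000 bp the shares were 29.3% and 11.2%, from 5001 to 50000 bp 27.0% and 19.6%, and beyond that 23.7% and 26.9%.

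**Figure D3:**
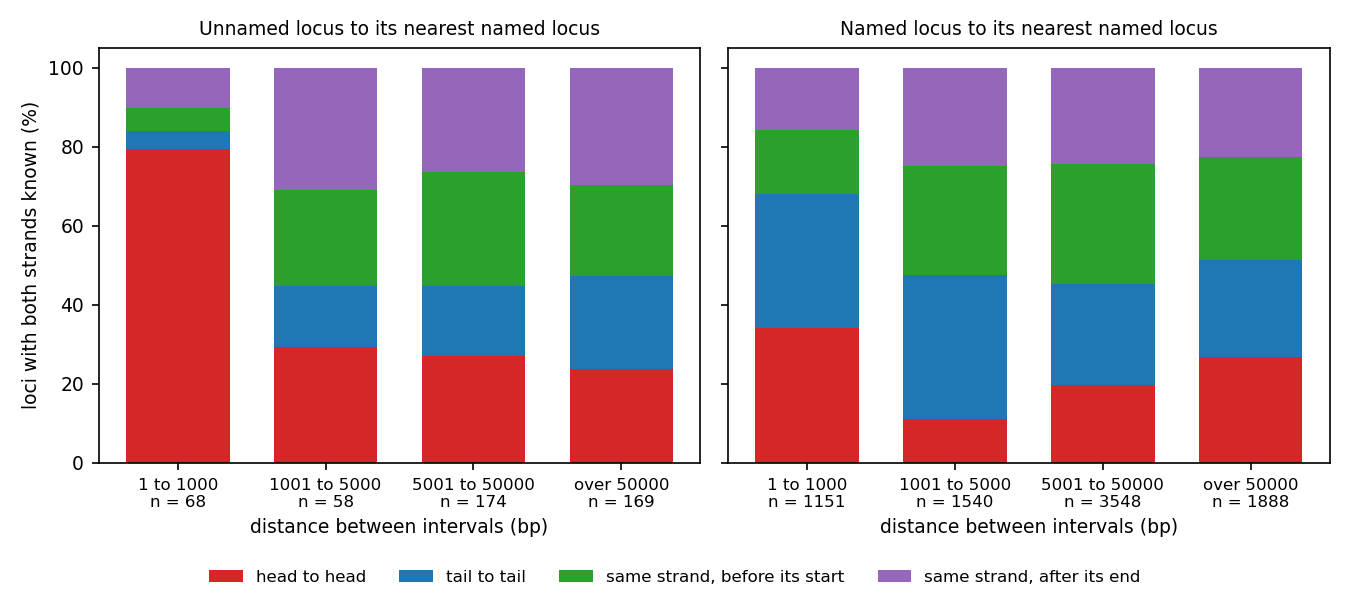
Share of loci (%) by arrangement to the nearest named locus, in 4 classes of distance (bp), for unnamed loci (left) and named loci (right) with both strands known. Head-to-head pairs make up 79.4% of the unnamed loci within 1000 bp and 34.1% of the named ones.

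The 54 head-to-head loci were weak beside strong genes. Their mean level had a median of 0.778 FPKM and ran from 0.173 to 3.87 FPKM, while the named partners had a median of 15.7 FPKM and were higher in 53 of 54 pairs. The gap had a median of 181 bp (30 to 938 bp), the unnamed loci spanned a median of 8716 bp, and 36 were on the plus strand and 18 on the minus strand. Of the partners, 39 were found in the RefSeq promoter table, with 46 windows. Those windows held a median of 26 CpG, against 20 for the named loci of the table and 7 for all RefSeq windows. A GC box was found in 67.4% of them, against 62.0% of the windows of named loci, and TATAAA in 8.70% against 7.07%. Partners of head-to-head pairs of named loci had a median of 24 CpG, close to that of the unnamed loci's partners.

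Such neighbours often differed between tissues in the same direction. Taking pairs with both loci at 1 FPKM or more in either library, Spearman's rho between the difference of the unnamed locus and that of its partner had a median of 0.60 over the 10 pairs of libraries (0.28 to 0.77, from 13 to 30 locus pairs each). For named head-to-head pairs within 1000 bp it was 0.27 (0.08 to 0.36). For weak unnamed loci without strand, under 10 FPKM and 1 to 5000 bp from a gene, it was 0.44, for strong ones at that distance 0.06, and for unnamed loci over 50000 bp away 0.07. These correlations are across loci, which share libraries, and neighbours can share reads.

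The partners included transcription factor genes and genes of other kinds. Kdm2b encodes a histone demethylase bound to CpG-rich promoters. The head-to-head locus XLOC_041555 (chromosome 5, 123439591 to 123448352, plus strand) began 273 bp from it and stood at 5.498, 6.90, 0.616, 1.71 and 3.82 FPKM, and Kdm2b at 38.2, 35.04, 17.9, 23.6 and 30.5 FPKM. Both were lowest in liver. Tbx20, a T-box factor of the developing heart, stood at 44.6, 93.3, 2.94, 1.45 and 0.0511 FPKM. XLOC_055327, 504 bp away, stood at 1.13 and 0.908 FPKM in the E8.5 libraries and was listed at 0 in the 3 E10.5 libraries. Pdpn, the membrane glycoprotein podoplanin, stood at 19.4, 19.5, 3.16, 22.3 and 10.03 FPKM, and XLOC_037771, 41 bp away, at 0.318, 0.811, 0.0201, 1.54 and 0.421 FPKM. Both were lowest in liver and highest in ventral pancreas. Lmx1b, a LIM homeodomain factor, stood at 0.871, 0.942, 0.981, 1.19 and 4.25 FPKM, and XLOC_029717, 382 bp away, at 0.742, 0.411, 0.224, 1.17 and 3.64 FPKM, with dorsal pancreas on top in both. Not every pair moved together. Creb3l2 stood at 13.3, 17.4, 9.72, 7.42 and 9.81 FPKM, lowest in ventral pancreas. XLOC_045140, 219 bp away from it, stood at 1.13, 1.57, 2.22, 2.72 and 1.52 FPKM, highest in ventral pancreas. Apart from Kdm2b's, the loci in this paragraph were picked after their values were seen.

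The strongest head-to-head loci within 5000 bp were farther from their partners and flat. XLOC_034957 (2415 bp from Ssr2) ranged from 115 to 187 FPKM, with Rtraf-ps as the only candidate between its flanks. XLOC_029912 (3338 bp from Qser1) ranged from 70.2 to 108 FPKM, XLOC_029724 (3317 bp from Stom) from 45.1 to 56.9 FPKM, and XLOC_048077 (1668 bp from Zfp27) from 7.22 to 11.98 FPKM. The only candidate listed for the last was the zinc finger gene Zfp383.

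For comparisons between tissues, a locus was counted as higher or lower when log2(FPKM + 1) differed by at least 2, which is 4 times, and the higher library reached 5 FPKM. Against several libraries the same direction was required for each. Only 610 of the 1602 unnamed loci reached 5 FPKM anywhere, 167 with strand and 443 without. In at least 1 of the 6 comparisons 27 unnamed loci passed, 19 with strand and 8 without, so the loci with strand gave most of the differences from fewer candidates. The share of all autosomal loci that passed in at least 1 comparison was not counted. Shares of all loci are given below for each comparison. Comparisons share libraries, so a locus that recurs is not supported again.

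Liver had 4 unnamed loci above both pancreatic libraries and 3 below them. Over all autosomal loci 0.968% were higher and 1.33% lower. Among loci reaching 5 FPKM 0.667% of 600 unnamed loci were higher, against 1.39% of all, and 3 of the 600 were lower, against 1.92% of all. Whether these shares differ was not tested. XLOC_034712 (chromosome 3, 132292800 to 132319331, plus strand) stood at 0.00871, 0.0317, 22.9, 2.48 and 0.286 FPKM and differed by 2.78 from ventral and 4.22 from dorsal pancreas. It lies 4130 bp from Aimp1 and Tbck, and RefSeq lists Gimd1, a lncRNA and a pseudogene between its flanks. XLOC_051628, 1007 bp without strand and 366684 bp from Jmjd5, stood at 27.5, 29.7, 335, 59.5 and 34.6 FPKM, and XLOC_057205, 699 bp near Scamp5, at 193, 136, 1103, 255.5 and 195 FPKM. Pseudogenes are listed between the flanks of both. XLOC_019630, 4932 bp beyond the elastase gene Cela1, stood at 0.479, 0.549, 7.87, 1.07 and 0.615 FPKM. These 4 were also the unnamed loci higher in liver than in each of the other 4 libraries, where 0.769% of all loci were. Leukocyte markers were highest in the liver library too, summing to 87.8 FPKM against 1.58 to 6.56 FPKM elsewhere (5 of 10 found). Hepatic (5999 FPKM, 8 of 9), heart muscle (487 FPKM, 8 of 10), smooth muscle (155 FPKM, 5 of 5) and endothelial markers (73.3 FPKM, 7 of 7) also summed higher in liver than in both pancreatic libraries. Pancreatic, endoderm epithelium, erythroid and neural markers summed lower, and mesenchyme markers lay between. The part of these cell types in these differences was not tested. Between Dazap2 and Cela1 RefSeq lists 3 candidates: Smagp, Bin2, a gene of white blood cells, and the microRNA Mir6961.

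The 3 lower in liver were XLOC_045242, XLOC_030333 and XLOC_052228. XLOC_030333 (chromosome 2, 8962274 to 8964264, minus strand), 814452 bp beyond Gata3, stood at 13.6, 10.9, 1.61, 11.5 and 12.4 FPKM. XLOC_052228, 674 bp on the plus strand of chromosome 8 (13896153 to 13896827), stood at 23.5, 32.9, 0.666, 6.42 and 8.45 FPKM, with the pseudogene Gm7676 as the only candidate. Both were lower in liver than in each of the other 4 libraries, where 0.244% of all loci were. The smallest of these differences between liver and another library was -2.16 on the log2 scale.

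Ventral pancreas was higher than dorsal pancreas for 5 unnamed loci and lower for none, against 0.843% and 0.673% of all autosomal loci. With libraries rescaled to the same total, 4 were higher and 1 lower. Of unnamed loci reaching 5 FPKM 0.846% were higher, and of all loci 1.25% were higher and 0.998% lower. Markers of other cell types moved with this comparison. Hepatic markers summed to 603 FPKM in ventral and 65.2 FPKM in dorsal pancreas (8 of 9 found), erythroid markers to 116 and 27.2 FPKM (3 of 9) and endoderm epithelium markers to 895 and 448 FPKM (7 of 7), and none of the markers found was listed at 0 in either library. Pancreatic markers were lower in ventral pancreas, at 302 against 1469 FPKM (7 of 8). Mesenchyme markers, at 32.9 against 176 FPKM (9 of 9), and endothelial markers, at 26.4 against 50.7 FPKM (7 of 7), were lower there too. The part of these cell types in these differences was not tested. The largest difference was 6.81 for XLOC_033383, beside Foxa2 and described with the lineage genes below. XLOC_052696 (chromosome 8, 9146686 to 9157602, minus strand), 455573 bp from Arglu1, stood at 0.116, 0.0804, 0.332, 10.9 and 0.221 FPKM. XLOC_045242 (chromosome 6, 70672553 to 70676961, plus strand), 38758 bp from Rpia, stood at 2.27, 6.89, 1.53, 97.2 and 17.5 FPKM. Between its flanks, Serbp1 and Rpia, RefSeq lists 206 genes, among them the immunoglobulin kappa cluster. XLOC_055548 lies before Onecut1. The fifth was XLOC_035785, 216 bp, at 332, 699.6, 358, 1198 and 291 FPKM, which belongs to the very short loci above and differed by 1.93 after rescaling to the same total. All but XLOC_035785 were higher in ventral pancreas than in each of the other 4 libraries, where 0.177% of all loci were, and none was lower there, where 0.0443% of all loci were. No unnamed locus stood apart in this way in foregut, where 0.0148% of all loci were higher, in medial foregut, where 0.00739% were, or in dorsal pancreas, where 0.237% were.

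Between foregut and medial foregut no unnamed locus passed in either direction, against 0.0370% of all autosomal loci higher in foregut and 0.00739% lower. With a lower limit of 1 FPKM, 1 unnamed locus passed.

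Against both E8.5 libraries, liver had 12 unnamed loci that were higher and 4 that were lower, where 2.13% and 1.91% of all autosomal loci were. Ventral pancreas had 10 and 1, against 1.78% and 1.33% of all loci. Dorsal pancreas had 4 and 2, against 1.26% and 1.07% of all loci. Of all loci reaching 5 FPKM, 3.22%, 2.59% and 1.88% were higher in these comparisons, in the same order, and 2.89%, 1.93% and 1.59% were lower. Of the unnamed loci reaching it, 2.08%, 1.68% and 0.686% were higher, each below the share of all loci. Those with strand alone gave 4.83%, 5.10% and 2.65% higher and 2.76%, 0.637% and 1.32% lower. Whether any of these shares differ was not tested. XLOC_011620 shares an interval on chromosome 12 (104966259 to 105195224, minus strand) with Serpina1 genes, which encode the liver-secreted protease inhibitor alpha-1 antitrypsin. It stood at 0.922, 0.415, 60.0, 22.5 and 7.13 FPKM. The locus of Serpina1a, Serpina1b and Serpina1e stood at 9.89, 3.53, 958, 333 and 118 FPKM, in the same order of tissues. Neighbours can share reads, and whether these did was not tested. The smaller difference of XLOC_011620 for dorsal pancreas was 1.99 with median-ratio scaling, short of the size rule. XLOC_048020 (chromosome 7, 25872257 to 25964930, plus strand), in the interval of Pou2f2 but on the other strand, stood at 0.0869, 0.0476, 4.02, 35.8 and 9.30 FPKM, whereas Pou2f2 stayed between 0.237 and 2.54 FPKM. XLOC_004612, 126463 bp beyond Cand1, was at 0.0405 and 0.0441 FPKM at E8.5 and at 12.2, 4.29 and 4.88 FPKM at E10.5. XLOC_051920, near Ebf3 and without strand, stood at 18.8, 17.8, 145, 55.9 and 33.2 FPKM. XLOC_030275, 71789 bp beyond Edn3, reached 6.48 FPKM in dorsal pancreas and was listed at 0 in liver. Edn3, the peptide endothelin 3, was highest in dorsal pancreas too, at 17.3 FPKM.

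The unnamed locus furthest below its E8.5 levels was XLOC_048147, on the plus strand of chromosome 7 (51728810 to 51741018), 1784 bp beyond the joined locus of Aspdh and Josd2. It stood at 99.8, 195, 4.63, 0.354 and 0.576 FPKM, and its smaller difference from the E8.5 libraries was -4.16 for liver on the log2 scale, -6.22 for ventral pancreas and -6.00 for dorsal pancreas. The lncRNA 5430431A17Rik is the only RefSeq gene listed between its flanks. Aspdh and Josd2 stood at 31.7, 46.3, 22.9, 26.8 and 31.8 FPKM, also highest in medial foregut but over a far smaller range. Heart muscle markers summed to 5162, 8849, 487, 25.1 and 21.5 FPKM over the same libraries (8 of 10 found), also highest in medial foregut, then foregut, then liver. Smooth muscle markers summed to 719.5, 1192, 155, 6.39 and 3.23 FPKM (5 of 5). Endothelial markers, at 89.4, 118, 73.3, 26.4 and 50.7 FPKM (7 of 7), were again highest in medial foregut, then foregut, then liver. The part of muscle or endothelial cells in this difference was not tested. Kdm2b's neighbour XLOC_041555 differed in liver by -2.01 from foregut and -2.29 from medial foregut, and with median-ratio scaling the smaller of these was -1.97, so that it no longer passed.

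**Figure D4:**
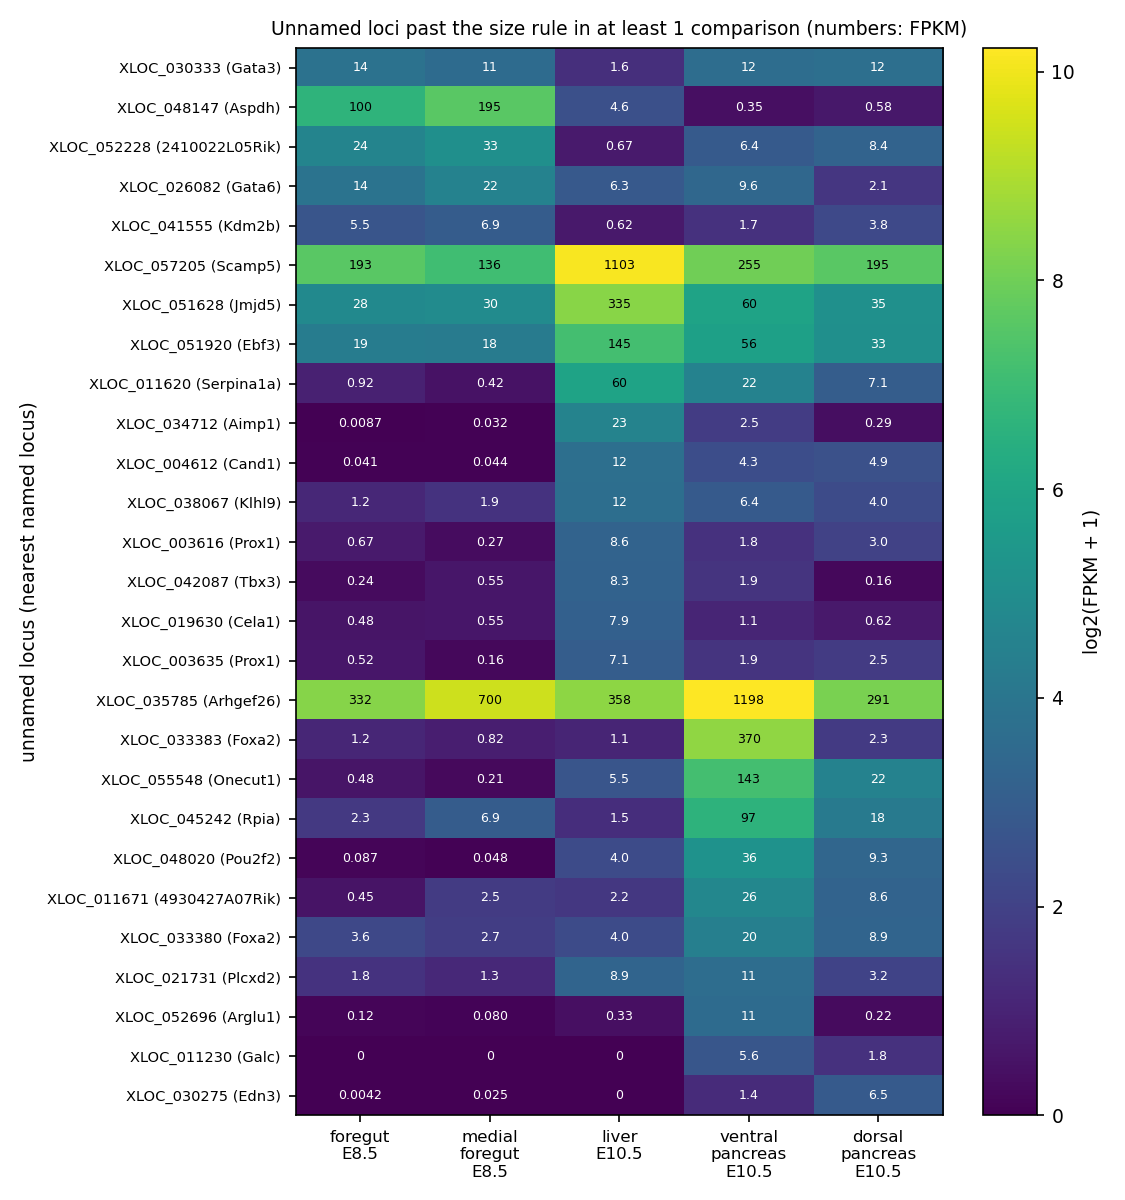
The 27 unnamed loci that passed the size rule in at least 1 comparison, with the nearest named locus in brackets, ordered by the library in which each is highest. Colour is log2(FPKM + 1) and the printed numbers are FPKM. Foregut and medial foregut are highest for 5 loci, liver for 11, ventral pancreas for 10 and dorsal pancreas for 1.

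Unnamed transcription was next examined around genes for transcription factors of the gut, liver and pancreas. Of 51 listed factors 47 were found, with 19 Hox genes besides, in 60 loci, and 20 of these had an unnamed locus within 50000 bp. There were 36 such unnamed loci, 4 with a mean of at least 10 FPKM, and 5 passed the size rule in at least 1 comparison. Over all 1602 unnamed loci, 519 had such a mean and 27 passed. How many other named loci have an unnamed locus as near was not counted, so whether lineage factors stand out was not tested. The list was drawn up with earlier results of these data known.

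Foxa2, the forkhead factor of the whole endoderm, stood at 18.2, 12.4, 24.0, 45.7 and 33.1 FPKM. An interval of 96370 bp (chromosome 2, 147769734 to 147866104) lay 2516 bp beyond its end and held 8 unnamed loci and no named one. In all 8, ventral pancreas was highest. XLOC_033383, without strand, stood at 1.15, 0.820, 1.08, 369.6 and 2.29 FPKM, which is a single high value in ventral pancreas and differed from the other 4 libraries by at least 6.81. XLOC_030817, on the same strand as Foxa2, followed Foxa2 more closely at 5.05, 3.52, 4.85, 21.8 and 9.95 FPKM. XLOC_033411 stood at 3.24, 2.38, 1.72, 9.52 and 3.66 FPKM, and the remaining 5 stayed between 0.125 and 5.01 FPKM. A further unnamed locus, XLOC_033421, shared Foxa2's own interval and stayed between 0.518 and 1.89 FPKM. Since the 8 loci share 1 interval, the position of each within it is not known.

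Onecut1, a factor of both liver and pancreas, stood at 4.45, 2.12, 11.9, 78.0 and 18.3 FPKM. XLOC_055548 (chromosome 9, 74695118 to 74702977, plus strand) ended 6742 bp before its start, on the same strand, and stood at 0.483, 0.208, 5.53, 143 and 22.2 FPKM. Both were highest in ventral pancreas and lowest in medial foregut, and the unnamed locus exceeded Onecut1 in the 2 pancreatic libraries. RefSeq lists 7 candidates between Wdr72 and Onecut1, among them the lncRNAs Gm33459 and Gm16551, and which of them the locus is was not tested.

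Prox1, a homeodomain factor of hepatoblasts, stood at 2.41, 1.65, 30.3, 9.66 and 11.5 FPKM and had 7 unnamed loci within 50000 bp. XLOC_003616 (chromosome 1, 191927116 to 191931362, no strand), 10388 bp away, stood at 0.673, 0.265, 8.56, 1.78 and 3.01 FPKM, and XLOC_003635, in the interval of Prox1, at 0.517, 0.159, 7.08, 1.90 and 2.47 FPKM. Both shared Prox1's order of the 5 tissues. The other 5 reached 0.764 to 2.33 FPKM in liver.

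Ptf1a, which marks pancreatic progenitors, stood at 0.0443 FPKM in foregut, was listed at 0 in medial foregut and liver, and reached 7.55 in ventral and 8.32 FPKM in dorsal pancreas. XLOC_030356, head to head with it at 9818 bp, reached 2.07 FPKM in both pancreatic libraries, stood at 0.0378 FPKM in medial foregut and was listed at 0 in foregut and liver. XLOC_029596 began 925 bp beyond its end on the same strand and reached 1.08 and 0.756 FPKM in the pancreatic libraries, with 0.0172 FPKM in foregut and 0 listed in the other 2. Pdx1, the factor on which pancreas growth depends, stood at 39.2 FPKM in ventral and 40.9 FPKM in dorsal pancreas and at no more than 0.945 FPKM elsewhere. XLOC_044913, 3449 bp from it, stood at 0.956 and 1.19 FPKM in those libraries, and XLOC_044903 at 0.550 and 0.493 FPKM, and neither passed 0.0324 FPKM elsewhere. None of these 4 reached 5 FPKM, so none could pass the size rule.

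Neighbours of factors with high levels at E8.5 differed in how far they followed the gene. Nkx2-5, a cardiac homeodomain factor, stood at 10.3, 20.7, 0.0191, 0.0358 and 4.77 FPKM, and XLOC_024764, 3183 bp away, at 1.67, 3.06, 0.00483, 0.00326 and 0.331 FPKM. A further unnamed locus beside Nkx2-5, XLOC_023366, stayed between 0.149 and 0.612 FPKM. Gata5 stood at 31.8, 60.1, 6.15, 4.81 and 1.76 FPKM, whereas XLOC_030289, 7747 bp away, stood at 1.19, 0.539, 1.44, 2.04 and 0.836 FPKM and was lowest in medial foregut. Hand2 stood at 9.58, 22.0, 2.84, 2.92 and 2.84 FPKM. The 2 unnamed loci in its interval stood at 2.29 and 2.18 FPKM in foregut and 3.92 and 3.91 FPKM in medial foregut, and at 0.133 to 1.65 FPKM at E10.5. XLOC_052340, head to head with Hand2 at 9728 bp, departed from it, with 3.38 FPKM in medial foregut and 3.52 FPKM in dorsal pancreas. Gata6, on chromosome 18, stood at 25.7, 41.1, 27.0, 33.6 and 11.2 FPKM, and XLOC_026082, 22053 bp before its start on the same strand, at 13.8, 22.4, 6.27, 9.59 and 2.06 FPKM. Both were highest in medial foregut and lowest in dorsal pancreas, and of the neighbours in this paragraph only XLOC_026082 passed the size rule. Some neighbours of other factors varied little. Hnf4a reached 158 FPKM in liver, and the unnamed locus 40969 bp from it stayed between 0.189 and 0.297 FPKM. XLOC_010070, a strong locus without strand near Hoxb9, was flat at 45.8 to 66.3 FPKM, whereas Hoxb8 ran from 0.0701 to 30.9 FPKM.

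**Figure D5:**
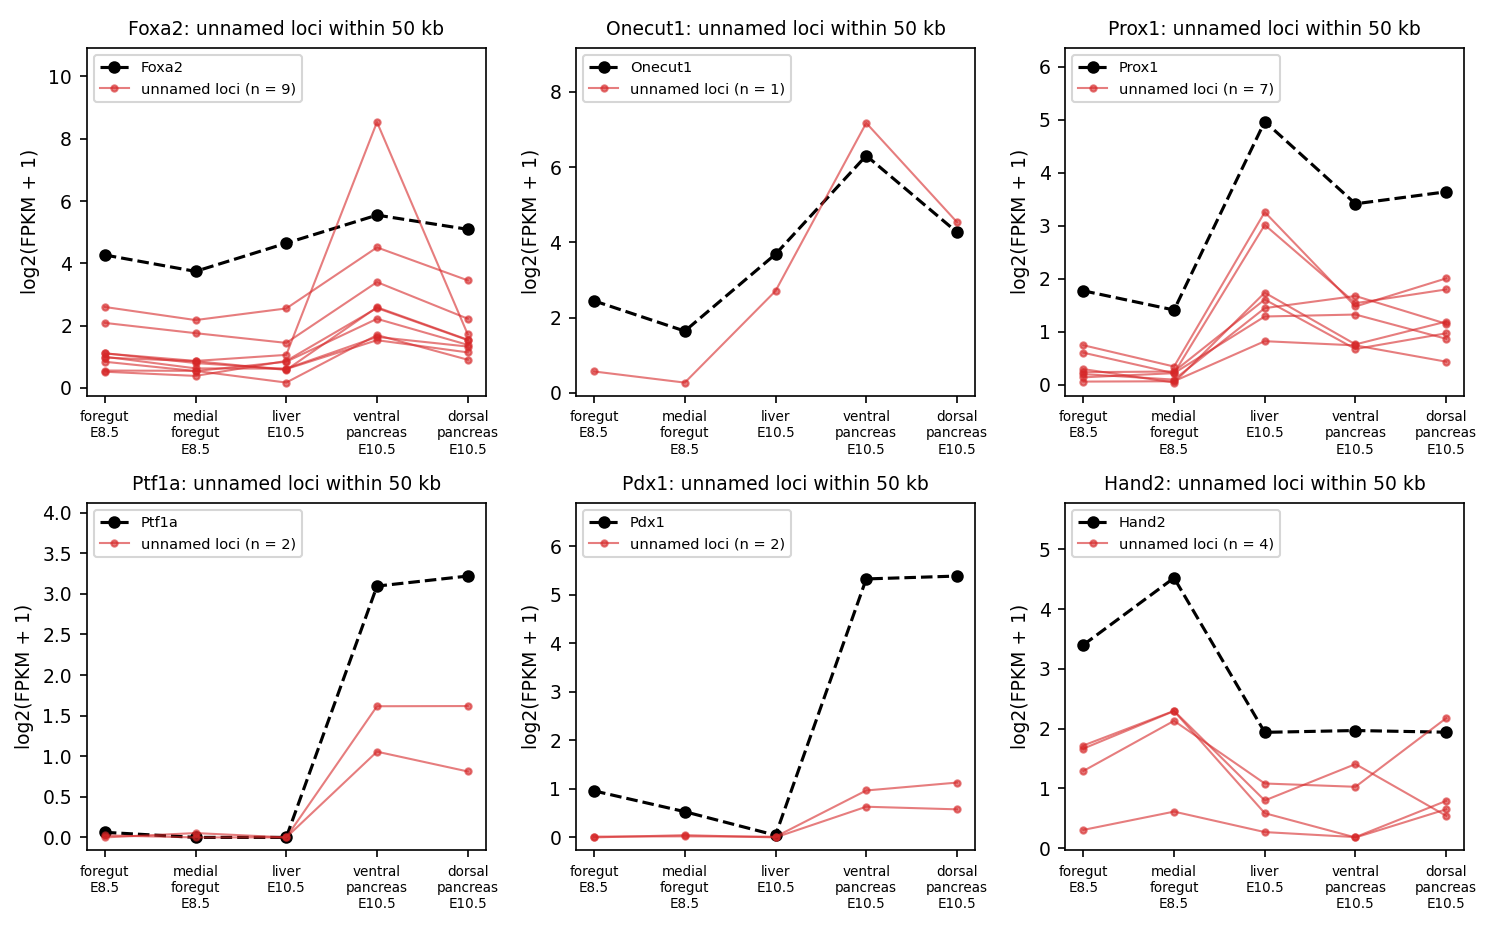
Level of 6 transcription factor genes (black, dashed) and of every unnamed locus within 50 kb of them (red), in log2(FPKM + 1), over the 5 libraries. The red lines peak in the same libraries as the gene for Onecut1, Ptf1a and Pdx1. Around Foxa2 XLOC_033383 exceeds the gene in ventral pancreas only, and around Hand2 and Prox1 some lines depart from the gene.

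Some unnamed loci come in clusters. Of the 1602, 1288 had an interval of their own, 191 shared one with a named locus, and 123 lay in 49 intervals that held unnamed loci only. The longest interval, 1175331 bp on chromosome 12 (20145321 to 21320652), held 19 loci, 15 of them unnamed, beside Asap2, Cpsf3, Itgb1bp1 and 1700030C10Rik. Of its unnamed loci, XLOC_011386 was highest of the 3 named by rule, at 11.1, 9.64, 5.04, 14.2 and 7.66 FPKM. XLOC_011388 ranged from 3.25 to 7.57 FPKM and XLOC_012138 from 1.67 to 5.32 FPKM, and all 3 were lowest in liver. An interval given to several loci is longer than any of them need be, so span says little about these 314 loci.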

How the data were processed

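The authors deposited FPKM values in 1 table with a row per locus, giving also its name, interval and strand, per the file headers. Listed without role in the submitters' processing notes are mm9, Cufflinks 1.3.0 and TopHat. The sources used here do not give how libraries were scaled or loci selected, and each autosomal locus reached at least 0.235 FPKM somewhere. Whether a start counts from 0 or 1 is not stated. The 5 columns were matched to tissues by the column names the labels repeat.

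Loci overlapping each other carry 1 identical interval in the table, so arrangement was read only between intervals. Neighbours were found within the table. GRCm38.p6 RefSeq tables were used for names, order and promoters only, and no coordinate was converted. A search for steps worth 1 read found no shared step (for example 2 of 134 low loci at 1 ratio in the E8.5 libraries), so no counts were recovered.

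There are no replicates and no p-values. Differences use log2(FPKM + 1), a scale that understates changes of low loci, and a locus passed at a difference of 2 with the higher library at 5 FPKM. The rule for named loci took, per comparison and direction, the 5 largest, plus the 8 highest means, the 3 longest, the 4 highest head-to-head loci and passing neighbours of lineage factors. Loci outside it are marked as chosen after their values were seen, as are the neighbours of lineage factors that did not pass. The members and lists were chosen with earlier results of these data known. Scripts used Python 3.11.15, pandas 2.3.3 and scipy 1.17.1 and were tested on simulated data. Alternatives were other pseudocounts, scalings, low-value limits and subsets of loci.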

Additional observations from a re-analysis of the deposited data

How the results depend on the processing

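Of 104 alternative values of the main counts and correlations, 87 stayed near the reported value (counts within 1.5 times). The balance for liver against both pancreatic libraries, 4 higher and 3 lower, became 4 and 4 with the same total per library and 2 and 3 without loci lacking strand. A pseudocount of 0.1 FPKM gave 12 loci for ventral against dorsal pancreas in place of 5. A pseudocount of 5 FPKM gave 2 for liver against pancreas, 7 for liver, 7 for ventral pancreas and 2 for dorsal pancreas against E8.5, and 5 for loci higher in 1 library, in place of 7, 16, 11, 6 and 8. With a limit of 1 FPKM or none, foregut against medial foregut gave 1 and ventral pancreas against E8.5 gave 17. Without loci lacking strand, ventral against dorsal pancreas gave 3 and loci higher in 1 library 5. Unnamed loci near a named one numbered 616 within 5000 bp, 398 within 1000 bp and 1111 within 50000 bp, and head-to-head loci 71 within 5000 bp and 118 within 50000 bp. At 5 FPKM, 581 loci were detected in ventral and 565 in dorsal pancreas. Rescaling moved the median of all loci by up to 0.17 (same total, dorsal pancreas minus medial foregut) and -0.19 (median ratios, ventral pancreas minus liver), and was also applied, after seeing the data, to the shares by highest library. No paired analysis was possible because each group has 1 library. Leaving out a library was not possible for the same reason. Depth in reads is unknown, so the counting error of low values could not be given.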

Other observations

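On chromosome X there were 75 unnamed loci, of which 55 (73.3%) had no strand, 38 had a mean of at least 10 FPKM and 1 passed the size rule in at least 1 comparison. Their median span was 3217 bp.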
